A study of Mus musculus with 4 samples.

Results

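The genes described here are the Dusp, Sprouty (Spry) and Spred genes, a set of brakes on MAP kinase signalling, in NMuMG cells, an established epithelial line from normal mouse mammary gland. They were chosen by name: every feature whose only gene symbol in the platform annotation was Dusp, Spry or Spred followed directly by digits. This gave 28 of the 23332 gene-level transcript clusters, which covered 27 genes, and 235 of the 229581 exon-level probesets, which covered 28 genes (a probeset reads an exon or a part of it). The 28 genes comprised 9 MAP kinase phosphatases, 13 atypical Dusp genes, 3 Sprouty and 3 Spred genes. Dusp22 had probesets but no gene-level cluster under its symbol alone, and Dusp5, Dusp27 and Spry3 were not analysed here. Of the 27 genes at gene level, 24 were at level, meaning that the larger of their 2 intensities reached 124, the median of all gene-level values. Dusp15, Dusp21 and Spry4 lay below that in both arrays.

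The cells had received 1 ng/ml recombinant human TGF-beta1 for 24 h or had been left untreated, and all were grown in DMEM (4.5 g/l glucose) containing 10% fetal bovine serum and 10 ug/ml insulin. Serum and insulin, which themselves feed the Ras and MAP kinase pathway, were thus present in both groups. Each group was 1 array, summarised by the authors at gene level and again at exon level. These are 2 summaries of the same cultures and not replicates, so no difference below has a replicate check and no p-value was computed. The cells belong to an established line, and the labels do not give the number of cultures behind each array. Differences are TGF-beta minus untreated on the scale log2(intensity + 1), which slightly understates those of dim genes, and a gene is called higher or lower at 2-fold, a log2 difference of 1 in size.

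The arrays differed in scale. The median gene-level intensity was 120.1 in TGF-beta and 130.1 in untreated cells, and the median difference of all 9159 genes at level was −0.27. It was −0.14 after centring on the median of all clusters and −0.01 after quantile normalization, and likewise once a smooth curve of difference against level was subtracted (called trend removal below). Values close to the 2-fold line therefore moved across it with the scaling, and such cases among the genes described are given. Of 8 epithelial markers measured, 7 were at level, while Epcam, an epithelial adhesion protein, was below the level rule in both groups (62.2 with TGF-beta and 68.5 untreated). Of the markers of other cell types, 1 of 4 myoepithelial, 1 of 6 fibroblast, 0 of 4 endothelial, 1 of 3 leukocyte and 1 of 3 adipocyte genes were at level. The summed marker intensity was 14665 with TGF-beta and 19674 untreated for the epithelial list, whose members went both ways (Krt19 at −2.99 and Cldn4 at 2.66). It was 515 with TGF-beta and 283 untreated for the myoepithelial list, 755 with TGF-beta and 446 untreated for the fibroblast list and 293 with TGF-beta and 210.4 untreated for the endothelial list. It was 295 with TGF-beta and 393 untreated for the leukocyte list, and 300.3 with TGF-beta and 187 untreated for the adipocyte list. The 1 gene at level was Acta2 (1.88) in the myoepithelial, Col1a1 (0.97) in the fibroblast, Cd68 (−0.73) in the leukocyte and Plin1 (0.73) in the adipocyte list. Genes below the level rule made up the rest of these sums, and some, such as the leukocyte gene Cd3e (0.57), went the other way. Any part of the shifts in these sums in the differences below was not tested. In RNA from a whole culture, fewer cells of a kind and less RNA per cell cannot be told apart.

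MAP kinases (ERK, JNK and p38) are switched on by phosphorylation of a threonine and a tyrosine in their activation loop, and MAP kinase phosphatases of the Dusp family remove both phosphates. Sprouty and Spred proteins act further upstream, between growth factor receptors, Ras and Raf. Several of these genes are themselves induced by ERK activity and so form feedback loops. In epithelial cells, ERK activity is known to act together with TGF-beta in the transition towards a mesenchymal form.

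Spry1 and Dusp6 were the genes of the set that lay at least 2-fold lower with TGF-beta, and no member at level was at least 2-fold higher. Of all genes at level, 8.7% were lower and 2.28% higher by that rule, so the counts of 2 and 0 among 24 are near the background. Most members instead lay a little above 0. The median of the 24 was 0.23, and 16 of them were above 0, while 27.7% of all genes at level were. After centring, quantile normalization or trend removal, 37.9%, 49% and 48.5% of all genes at level were above 0, and the members counted 16, 18 and 18 of 24. These shares describe the pair of arrays, and the members were chosen with results of these data known. Dusp2 passed the level rule through the TGF-beta array alone, and Spry1 and Dusp23 through the untreated array alone. The directions of these genes were thus fixed by the rule. Between the genes called lower and the highest members (Dusp8, Dusp7 and Spred2, all under 2-fold as deposited), the members spanned differences of −1.92 to 0.91, as the plot of gene-level intensities shows.

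**Figure D1:**
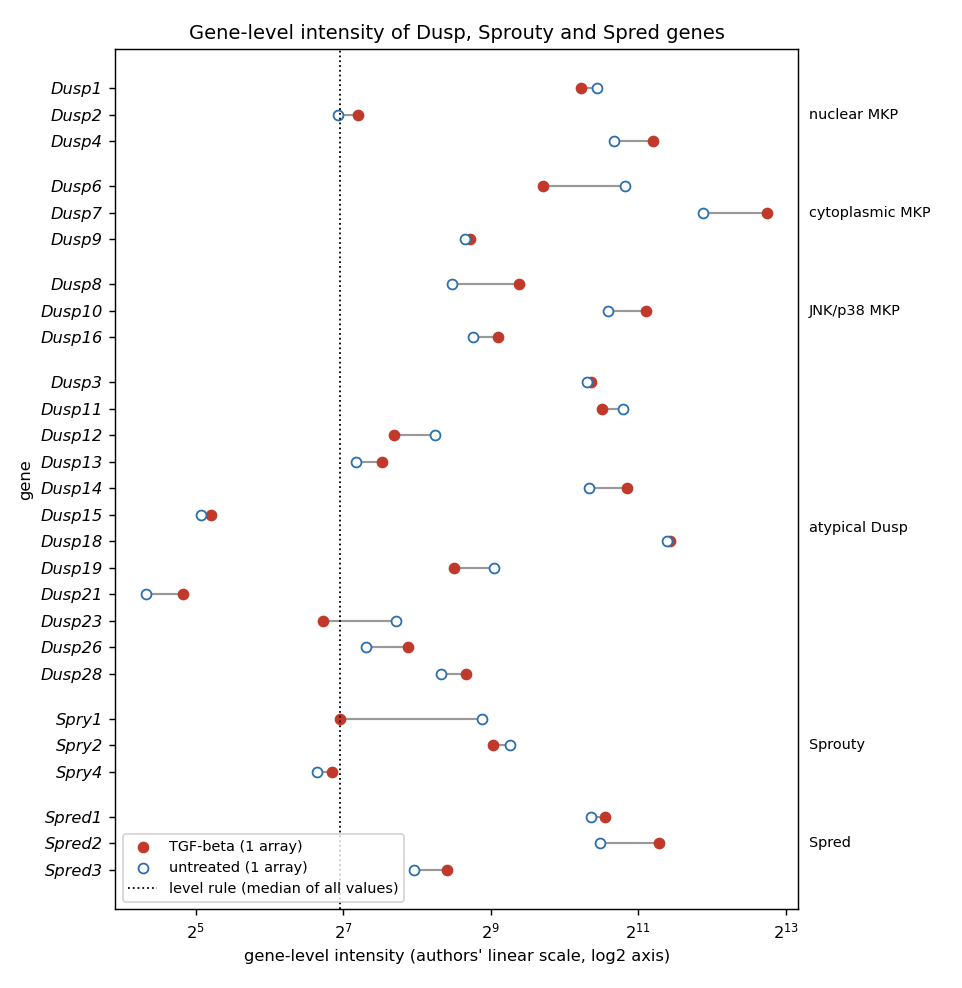
Gene-level intensity (authors' linear scale on a log2 axis) of the 27 genes with a gene-level cluster, in TGF-beta cells (filled) and untreated cells (open), 1 array each, with the level rule of 124 as a dotted line. Spry1 and Dusp6 lie well to the left with TGF-beta, while Dusp7, Dusp8 and Spred2 lie to the right; Dusp15, Dusp21 and Spry4 stay left of the dotted line in both.

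The MAP kinase phosphatases that act on ERK in the cytoplasm went in opposite directions. Dusp6 (MKP-3, transcript cluster 6770160), which ERK signalling is known to induce and which in turn switches ERK off, had 839 in TGF-beta and 1808 in untreated cells, a difference of −1.11. Its 6 probesets had a median of −1.09 ± 0.16 (SD between probesets, which measures the spread along the gene and not between cultures). At exon level Dusp6 was 303, 531, 781, 835, 1035 and 1419 with TGF-beta, against 545, 1041, 1939, 1819, 2376 and 2968 untreated, in the same probeset order. Every probeset was thus lower with TGF-beta, by 0.85 to 1.31 on the log2 scale. Under the other scalings Dusp6 stayed lower but fell short of 2-fold, at −0.97 after centring, −0.88 after quantile normalization and −0.85 after trend removal.

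Dusp7 (transcript cluster 6992172), a close relative of Dusp6 that is also selective for ERK, had 6887 in TGF-beta and 3755 in untreated cells, a difference of 0.87 and a ratio of 1.83. At exon level all 6 Dusp7 probesets were higher in TGF-beta cells, with a median of 0.86 ± 0.13 (SD). Of all genes at level, 97.1% had a lower difference than Dusp7. It crossed the 2-fold line after centring (1.01) and stayed under it after quantile normalization (0.90) and trend removal (0.91). Dusp9 (MKP-4), the third cytoplasmic ERK phosphatase, had 422 with TGF-beta and 401 untreated, a difference of 0.07, or 0.49 after quantile normalization and 0.48 after trend removal. Its 7 probesets at level lay on both sides of 0, between −0.18 and 0.76.

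All 3 phosphatases that prefer JNK and p38 had differences above 0. Dusp8 (transcript cluster 6972260) had the highest difference of all members at level, with 667 in TGF-beta and 355 in untreated cells (0.91, a ratio of 1.88). Its 10 probesets at level ran from 0.09 to 1.29, with a median of 0.85 ± 0.36 (SD), and 4 of them were at least 2-fold higher. The 7 that were at level in both arrays were all higher, while 3 passed the level rule through the TGF-beta array alone and could only come out higher. Dusp8 passed the 2-fold line under every rescaling, at 1.05 after centring, 1.29 after quantile normalization and 1.31 after trend removal. Dusp10 (MKP-5) had 2204 with TGF-beta and 1545 untreated (0.51), with all 7 probesets higher. Dusp16 (MKP-7), which acts mainly on JNK, had 546 with TGF-beta and 432 untreated (0.34, or 0.74 after quantile normalization and trend removal), with 8 of its 9 probesets at level higher.

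The nuclear phosphatases, which growth factors and stress induce rapidly, differed less. Dusp4 (MKP-2) had 2340 with TGF-beta and 1625 untreated, a difference of 0.53, and its 7 probesets were all higher at 0.50 ± 0.16 (SD). Dusp1 (MKP-1), a classic immediate-early gene, had 1193 with TGF-beta and 1394 untreated (−0.22). Its sign turned under quantile normalization and trend removal, each giving 0.02, so Dusp1 had no direction that held under every scaling. Dusp2 (PAC1), best known from activated lymphocytes, had 147 with TGF-beta and 121 untreated (0.28, or 0.42 after centring and quantile normalization). It passed the level rule through the TGF-beta array alone and could only come out higher. Over the 9 phosphatases together, 1 was lower, none higher and 8 were between these limits, and their median was 0.34. Among all genes at level, 8.7% were lower and 2.28% higher, so these counts are near the background. The median of all genes at level was −0.27.

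The start regions of the cytoplasmic phosphatase called lower and of the highest members are shown because these genes carry the contrast within the phosphatases. Each is 300 bases of RefSeq, from 250 bases before to 50 after the gene start on GRCm38.p6, 5′ to 3′ on the gene's strand: Dusp6 at chr10:99262981-99263280 (plus strand), Dusp7 at chr9:106368382-106368681 (plus) and Dusp8 at chr7:142095235-142095534 (minus). Capitals mark matches, on either strand, to any of 6 motifs. The cyclic AMP response element, bound by Creb-type factors, was searched as TGACGTCA and the Smad palindrome as GTCTAGAC. The AP-1 site, bound by Fos and Jun proteins, was searched as TGANTCA. The E-box that repressors of the Snail and Zeb families bind was searched as CAGGTG. The last 2 were common parts of vertebrate promoters, the CCAAT box by its own letters and the GC box, which Sp1 binds, as GGGCGG.
Dusp6: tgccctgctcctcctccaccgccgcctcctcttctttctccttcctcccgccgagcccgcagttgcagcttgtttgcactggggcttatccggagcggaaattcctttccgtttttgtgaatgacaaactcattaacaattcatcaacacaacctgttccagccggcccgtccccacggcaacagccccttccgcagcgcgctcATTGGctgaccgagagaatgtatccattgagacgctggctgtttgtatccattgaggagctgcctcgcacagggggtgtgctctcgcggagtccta
Dusp7: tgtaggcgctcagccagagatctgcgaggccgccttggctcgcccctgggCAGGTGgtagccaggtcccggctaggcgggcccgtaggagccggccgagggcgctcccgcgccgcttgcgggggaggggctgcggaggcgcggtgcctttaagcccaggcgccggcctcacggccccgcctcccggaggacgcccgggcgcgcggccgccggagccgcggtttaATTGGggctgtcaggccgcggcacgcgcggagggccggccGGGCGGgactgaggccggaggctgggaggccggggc
Dusp8: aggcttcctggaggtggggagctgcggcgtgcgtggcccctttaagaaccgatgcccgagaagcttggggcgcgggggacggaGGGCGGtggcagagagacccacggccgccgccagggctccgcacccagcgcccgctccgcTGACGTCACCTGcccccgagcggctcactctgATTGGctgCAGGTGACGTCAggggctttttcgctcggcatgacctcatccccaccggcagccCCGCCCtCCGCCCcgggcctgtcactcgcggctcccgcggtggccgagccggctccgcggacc
The Dusp6 window held a CCAAT box and none of the other motifs. The Dusp7 window held 1 E-box, 1 CCAAT box and 1 GC box. The Dusp8 window held 2 cyclic AMP response elements, at −107 and −63 from the start, each overlapping an E-box. It also held a CCAAT box at −75 and GC boxes at −167, −13 and −6. Of all 32851 start windows in the table, 1.79% held the cyclic AMP response element, 20.2% the E-box, 37.4% the CCAAT box and 35.7% the GC box. Of 28 members, 21 had a window in the table, and among them Dusp1 and Dusp8 held the response element, and 5 genes (Dusp7, Dusp8, Dusp11, Dusp13 and Dusp14) held the E-box. AP-1 and Smad motifs, which 7.81% and 0.213% of all windows held, were found in Dusp13 and in Dusp28. A match is a run of letters and does not show that a factor bound there.

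The atypical Dusp genes are smaller proteins without the MAP kinase docking part, and several act on substrates other than MAP kinases. Of the 10 at level, none was called higher or lower. Above 0 lay 6 of them and below it 4, and the median was 0.05. Among all genes at level, 2.28% were higher, 8.7% lower and 27.7% above 0, with a median of −0.27. The lowest atypical gene was Dusp23, a small phosphatase with 106 in TGF-beta and 211 in untreated cells, a difference of −0.99 just inside the 2-fold line. Its TGF-beta value lay below the level rule and only 1 of its 2 probesets was at level (−0.53). Gene and probeset both passed through the untreated array alone, so the direction was fixed by the rule and the size of this difference is uncertain. Dusp26 (0.57), Dusp14 (0.52), Dusp13 (0.35) and Dusp28 (0.34) lay above 0. After quantile normalization these were 0.86, 0.73, 0.57 and 0.75. Of their probesets, those at level in both arrays were higher with TGF-beta: 2 of Dusp26, 3 of Dusp14, 1 of Dusp13 and 5 of Dusp28. A further 2 of Dusp26, 2 of Dusp13 and 1 of Dusp28 passed the level rule through the TGF-beta array alone and could only come out higher. Of these, Dusp14 (MKP-6, known as a brake on T cell receptor signalling) had 1843 with TGF-beta and 1284 untreated. Dusp26 had 236 with TGF-beta and 159 untreated, and Dusp28 had 407 with TGF-beta and 321 untreated. Dusp13, a gene of testis and muscle, had 184 with TGF-beta and 144 untreated.

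On the lower side, Dusp12, a zinc-binding phosphatase, had 207 with TGF-beta and 303 untreated (−0.55), and Dusp19, which acts in the JNK pathway, had 364 with TGF-beta and 527 untreated (−0.53). All 6 probesets of Dusp19 at level were lower, at −0.57 ± 0.25 (SD). Of the 5 of Dusp12, 4 were lower, but their median of −0.11 ± 0.49 (SD) was closer to 0 than the gene-level value. For each gene, 1 probeset passed the level rule through the untreated array alone, and that of Dusp12 was its lowest (−1.04). After quantile normalization Dusp12 was at −0.18 and Dusp19 at −0.11, and after trend removal at −0.23 and −0.13. Dusp11, which removes phosphates from RNA and is therefore not a MAP kinase brake in the strict sense, had 1451 with TGF-beta and 1767 untreated (−0.28, or −0.11 after quantile normalization), as deposited close to the median of all genes. Of its 17 probesets, 13 were lower, while probeset 4596270 had 4158 with TGF-beta and 2348 untreated (0.82). Dusp3 (VHR), which can act on ERK and JNK, had 1318 with TGF-beta and 1267 untreated (0.06), and Dusp18 had 2764 with TGF-beta and 2689 untreated (0.04). These were the smallest differences among members at level on the deposited scale; after quantile normalization Dusp3 was at 0.29, Dusp18 at 0.17 and Dusp1, at 0.02, closer to 0. Dusp22, a regulator of JNK signalling read at exon level alone, had 3 of 17 probesets at level, at 0.37, 0.39 and 0.58. All 3 passed the exon rule through the TGF-beta array alone, so their direction was fixed by the rule. Dusp15 had 36.9 with TGF-beta and 33.7 untreated and Dusp21 had 28.3 with TGF-beta and 20.1 untreated, both too low to separate from background on this scale.

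**Figure D2:**
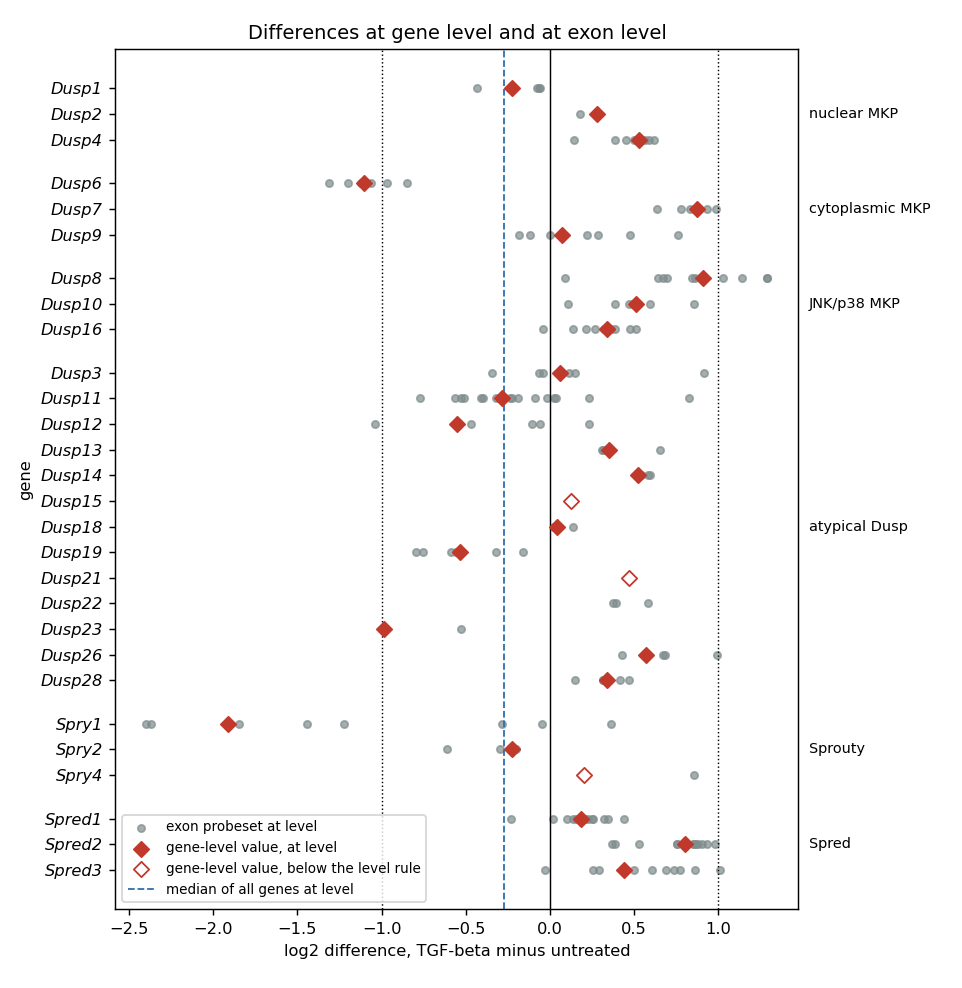
Log2 difference (TGF-beta minus untreated) of each member: diamonds are gene-level values, grey points the exon probesets at level, dotted lines the 2-fold limits and the dashed line the median of all genes at level (−0.27). Dusp6 and Spry1 lie left of the lower limit, the points of Spry1 spread from −2.40 to 0.37, and those of Dusp7 and Spred2 all lie right of 0.

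Among the Sprouty genes, Spry1 (transcript cluster 6896860), an inhibitor of receptor tyrosine kinase signalling upstream of ERK, had the largest difference of the whole set. It had 124 in TGF-beta and 471 in untreated cells, a difference of −1.92 and a ratio of 0.27. Of all genes at level, 1.45% had a lower difference. The TGF-beta value lay just under the level rule, so Spry1 passed it through the untreated array alone. Its direction was thus fixed by the rule, and the exact size is uncertain. With the level rule kept on the deposited values, Spry1 stayed at least 2-fold lower under every scaling tried. It was at −1.78 after centring, −1.64 after quantile normalization and −1.60 after trend removal. Spry2, the best studied relative, had 522 with TGF-beta and 612 untreated (−0.23). All 3 of its probesets were lower as deposited, but its gene-level sign turned to 0.16 after quantile normalization and after trend removal. Spry4 had 115 with TGF-beta and 99.8 untreated, below the level rule in both, and 1 of its 5 probesets was at level (0.86), through the TGF-beta array alone, so that its direction was fixed by the rule. The Sprouty genes at level thus did not share a direction that held under each scaling.

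The start region of Spry1, the member with the largest difference, lies at chr3:37639697-37639996 (GRCm38.p6, plus strand) and is given from RefSeq in the same form, capitals marking the motifs listed above.
Spry1: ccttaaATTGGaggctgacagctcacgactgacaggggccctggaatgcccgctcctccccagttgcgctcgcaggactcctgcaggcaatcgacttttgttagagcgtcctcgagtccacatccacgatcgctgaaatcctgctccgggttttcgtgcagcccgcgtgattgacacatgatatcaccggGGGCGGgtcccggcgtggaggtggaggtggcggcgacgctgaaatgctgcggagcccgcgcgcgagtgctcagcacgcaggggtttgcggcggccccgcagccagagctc
It held 1 CCAAT box at −244 and 1 GC box at −60, and no match to the other 4 motifs. The E-box and the cyclic AMP response element, absent here, were held by only 20.2% and 1.79% of all windows. Any link between the motifs and the differences was not tested.

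The probesets of Spry1 did not move together. In 6 of the 9 probesets the TGF-beta value was clearly lower. Probesets 4782472 and 5523777 had 88.8 and 80.2 with TGF-beta, against 472 and 419 untreated (−2.40 and −2.37). Probeset 4471585 had 195 with TGF-beta and 707 untreated (−1.85), and probeset 4615115 had 156 with TGF-beta and 426 untreated (−1.44). Probeset 4336120 had 364 with TGF-beta and 854 untreated (−1.23), and probeset 4833061, below the exon level rule of 265 in both, had 57.9 with TGF-beta and 234 untreated (−2.00). The other 3 probesets lay near 0. Probeset 5517055 had 429 with TGF-beta and 523 untreated (−0.28), probeset 5017855 had 291 with TGF-beta and 301 untreated (−0.05), and probeset 5049706 had 365 with TGF-beta and 283 untreated (0.37). The 8 probesets at level therefore had a median of −1.33 with an SD of 1.06, and the gene-level value lay 0.58 below that median, the largest gap between both levels among 22 members with at least 3 probesets at level. The median gap was 0.04, and all 22 had the same sign at both levels.

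A splicing index was computed as a probeset's difference minus the median difference of the gene's other probesets at level, for genes with at least 5 such probesets, and probesets whose index was 1 or more in either direction were called departing. In Spry1, 5 of 8 probesets departed: the 3 near 0, with indices of 1.16, 1.39 and 1.81, and the lowest 2, with −1.17 and −1.14. The lowest 2, and probesets 4471585 and 4615115, had TGF-beta values under the exon level rule and passed it through the untreated array alone, so their direction was fixed by the rule and the size of their differences, and of every index that rests on them, is uncertain. Of the 4 probesets at level in both arrays, 3 were those near 0 and the remaining 1 was 4336120, at −1.23. Because the probesets fall on both sides of their median, the index does not say which side stands for the main transcript. The probesets carry no positions in the files, so their place in the gene is not given here. Spry1 was not at level under a rule at the 75th percentile. The only other departing probeset among the members was that of Dusp11 named above (index 1.08). Departing probesets numbered 6 of 139 among members, beside 3.64% of all probesets indexed. They lay in 2 of 17 genes, while 29.4% of all genes indexed held at least 1.

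**Figure D3:**
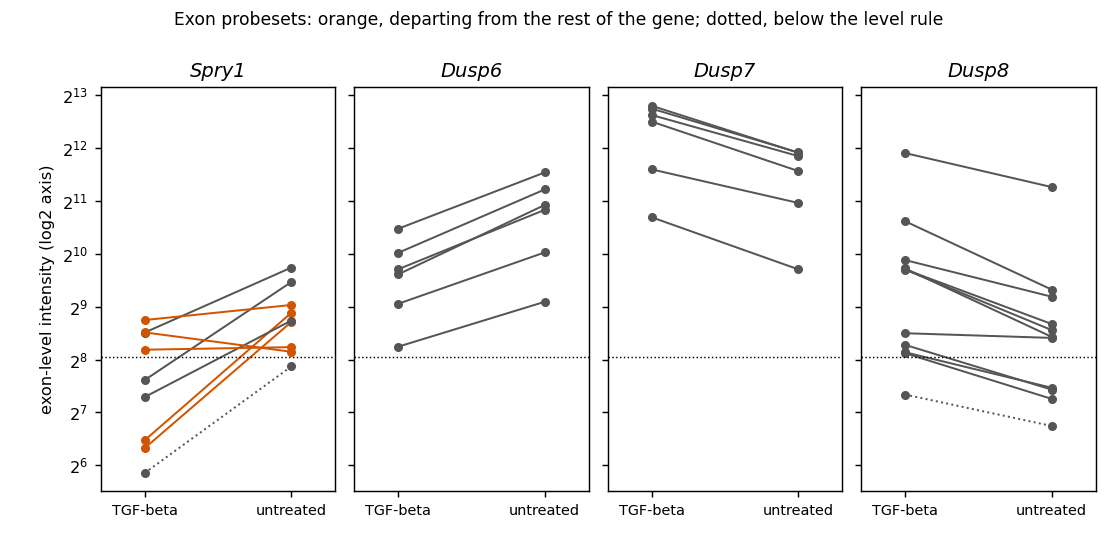
Exon-level intensity (log2 axis) of each probeset in TGF-beta cells (left end) and untreated cells (right end) for Spry1, Dusp6, Dusp7 and Dusp8, 1 array each; orange lines are departing probesets, dotted lines those below the level rule of 265. The Dusp6 lines run in parallel and lower with TGF-beta, the Dusp7 lines in parallel and higher, and those of Spry1 cross.

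Spred proteins sit at the membrane and bring neurofibromin, a Ras-inactivating protein, to Ras. All 3 had differences above 0, and their median was 0.44 as deposited and 0.82 with quantile normalization. Spred2 had 2 transcript clusters, which gave 2490 with TGF-beta and 1427 untreated (0.80) and 1161 with TGF-beta and 687 untreated (0.76). All 12 of its probesets at level were higher, at 0.85 ± 0.21 (SD), and 96.7% of all genes at level had a lower difference. Spred2 approached 2-fold after quantile normalization and trend removal (0.99 in each) but did not pass it. Spred3 had 339 with TGF-beta and 250 untreated (0.44, or 0.82 after quantile normalization), and all 8 of its probesets at level in both arrays were higher. Spred1, the member linked to an inherited disorder of Ras signalling in humans, had 1498 with TGF-beta and 1317 untreated (0.19, or 0.40 after quantile normalization), with 11 of 12 probesets higher. Neurofibromin itself (Nf1), their partner, had 698 with TGF-beta and 767 untreated (−0.14). Its sign depended on the scaling, with 0.21 after quantile normalization and 0.22 after trend removal.

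Over the 161 member probesets at level, 108 lay above 0. By the 2-fold rule, 5 were higher and 10 lower. Of all probesets at level, 32.6% lay above 0, 3.55% were at least 2-fold higher and 11.6% lower. The 10 lower ones belonged to Spry1 (5), Dusp6 (4) and Dusp12 (1), and the 5 higher ones to Dusp8 (4) and Spred3 (1). Of the 161, 14 passed the level rule through the TGF-beta array alone and 8 through the untreated array alone, and of the 139 at level in both, 94 lay above 0 (33.6% of all probesets at level in both did). Probesets of a gene share its RNA, so these counts are not independent observations. The scaling plot sets the gene-level differences side by side. As deposited, 0 members were higher and 2 lower (Dusp6 and Spry1). Centring gave 2 higher (Dusp7 and Dusp8) and 1 lower (Spry1), and quantile normalization and trend removal each gave 1 higher (Dusp8) and 1 lower (Spry1). The background for higher and lower genes was then 2.94% and 6.05% after centring, 3.7% and 4.4% after quantile normalization, and 3.6% and 4.77% after trend removal.

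**Figure D4:**
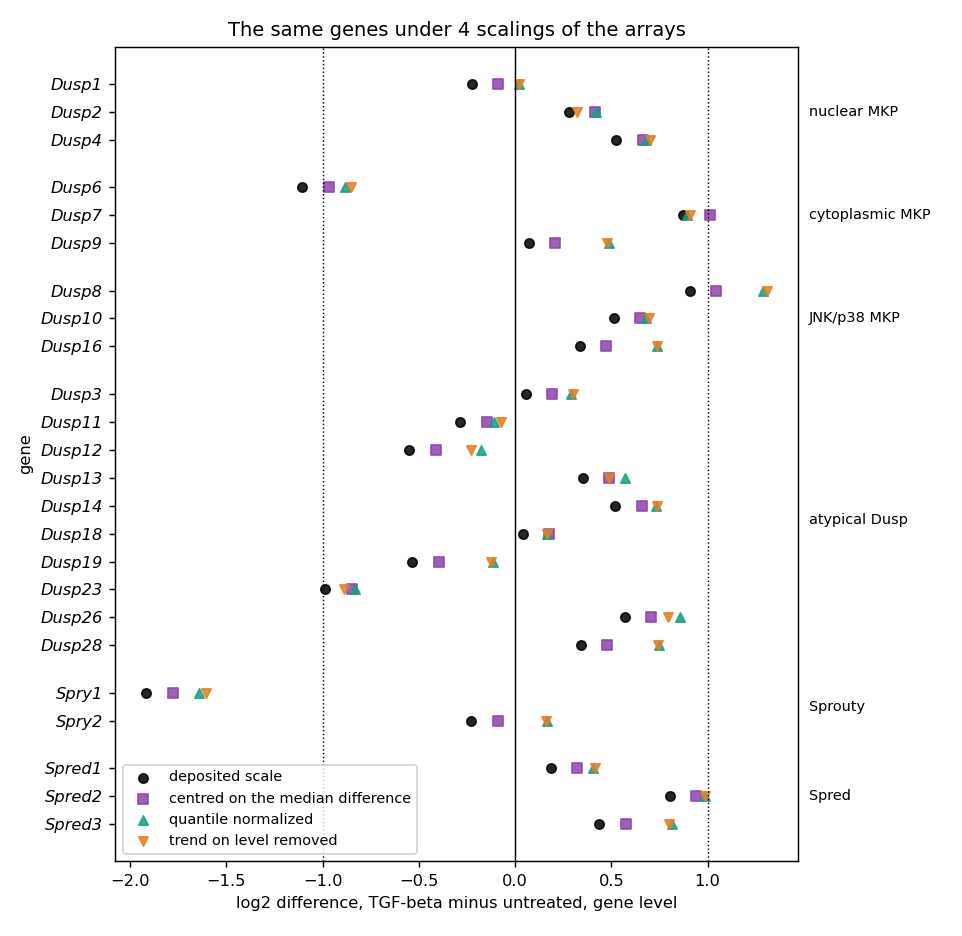
Gene-level log2 difference (TGF-beta minus untreated) of the 24 members at level on the deposited scale and after centring, quantile normalization or removal of the trend on level; dotted lines mark 2-fold. Spry1 stays left of the lower limit under all 4, Dusp6 only as deposited, and Dusp8 passes the upper limit under the other 3.

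The pathway these genes restrain was described through 4 lists, drawn up with earlier results of these data known. Of the ERK cascade, 16 of 25 listed genes were measured, all at level and all within 2-fold as deposited. The shares over all genes at level were 2.28% higher and 8.7% lower. The list median was −0.19, but 0.09 after quantile normalization and 0.11 after trend removal, so its sign depended on the scaling. The small GTPase Rras was highest (4361 with TGF-beta and 2335 untreated, 0.90). Map2k1 (MEK1), a kinase that activates ERK, followed with 2017 with TGF-beta and 1243 untreated (0.70). Next was the epidermal growth factor receptor Egfr (1475 with TGF-beta and 1019 untreated, 0.53). Rras passed 2-fold after centring (1.04) and was at 1.00 after trend removal, just past the line. The scaffold Ksr1 (−0.53), the kinase Rps6ka3 (−0.50), which ERK activates, and the kinase Mknk2 (−0.49) were lowest as deposited. After quantile normalization Ksr1 was at −0.12, Rps6ka3 at −0.22 and Mknk2 at −0.23, while Map2k1 was at 0.90 and Egfr at 0.77.

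Of the JNK and p38 cascade, 22 of 24 genes measured were at level. As deposited, 3 of them were at least 2-fold higher and 3 lower, or 3 higher and 1 lower under each of the other scalings. The shares over all genes at level were 2.28% higher and 8.7% lower as deposited. They were 2.94% and 6.05% after centring, 3.7% and 4.4% after quantile normalization, and 3.6% and 4.77% after trend removal. The list median was −0.16, but 0.09 after quantile normalization and 0.08 after trend removal. The higher ones were the 3 Gadd45 genes, stress-induced proteins that activate the kinase Map3k4. Gadd45a had 638 with TGF-beta and 150 untreated (2.08), Gadd45g had 1375 with TGF-beta and 447 untreated (1.62), and Gadd45b had 1630 with TGF-beta and 630 untreated (1.37). The lower ones were kinases of the cascade. Map3k5 (ASK1), which responds to oxidative stress, had 184 with TGF-beta and 617 untreated (−1.74). Map3k1 had 351 with TGF-beta and 731 untreated (−1.06). Map2k6, a kinase that activates p38, had 239 with TGF-beta and 497 untreated (−1.05). Map3k5 alone among these 3 stayed at least 2-fold lower under all scalings, and all 3 Gadd45 genes stayed higher.

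Transcripts known to be induced by ERK went both ways. Of 20 measured, 18 were at level, none at least 2-fold higher and 1 lower, with 11 above 0 and a median of 0.15. Among all genes at level, 2.28% were higher, 8.7% lower and 27.7% above 0, with a median of −0.27. The list median was 0.29 after centring, 0.34 after quantile normalization and 0.32 after trend removal. The AP-1 subunits Junb (2282 with TGF-beta and 1164 untreated, 0.97) and Fosl2 (1597 with TGF-beta and 819 untreated, 0.96) and the growth factor Hbegf (0.83) were highest, and Junb and Fosl2 passed 2-fold under each of the other scalings. Hbegf passed it after quantile normalization and trend removal (1.06 in each). The growth factor epiregulin (Ereg) was lowest, with 380 in TGF-beta and 1191 in untreated cells (−1.64), followed by the immediate-early factor Egr1 (−0.81) and the ephrin receptor Epha2 (−0.49). After quantile normalization Ereg was at −1.30, Egr1 at −0.39 and Epha2 at −0.40. Etv4 (−0.06) and Etv5 (0.08) lay near 0 as deposited. After quantile normalization they were at 0.27 and 0.39, and after trend removal at 0.21 and 0.32. Both were named after their values were seen, because they, Dusp6 and the Sprouty genes are known as common targets of fibroblast growth factor signalling.

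Among the other brakes of Ras and MAP kinase signalling, 14 of 18 genes measured were at level, with none higher and 2 lower. The shares over all genes at level were 2.28% higher and 8.7% lower. The list median was −0.08 as deposited, but 0.06 after centring and 0.23 after quantile normalization or trend removal. The adaptor Dok4 had 192 with TGF-beta and 428 untreated, and the Ras GTPase-activating protein Rasa2 had 211 with TGF-beta and 469 untreated, each a difference of −1.15. Both lay within 2-fold after quantile normalization (−0.78 and −0.76) and trend removal (−0.79 and −0.77). The cytokine signalling inhibitor Socs3 followed at −0.61, or −0.20 after quantile normalization. The Ras GTPase-activating proteins Rasal1 and Rasa1 (0.49 each) and Rasa3 (0.33) were highest. After quantile normalization Rasal1 was at 0.68, Rasa1 at 0.70 and Rasa3 at 0.56. Brakes outside the Dusp, Sprouty and Spred genes, as within them, therefore lay on both sides of 0.

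**Figure D5:**
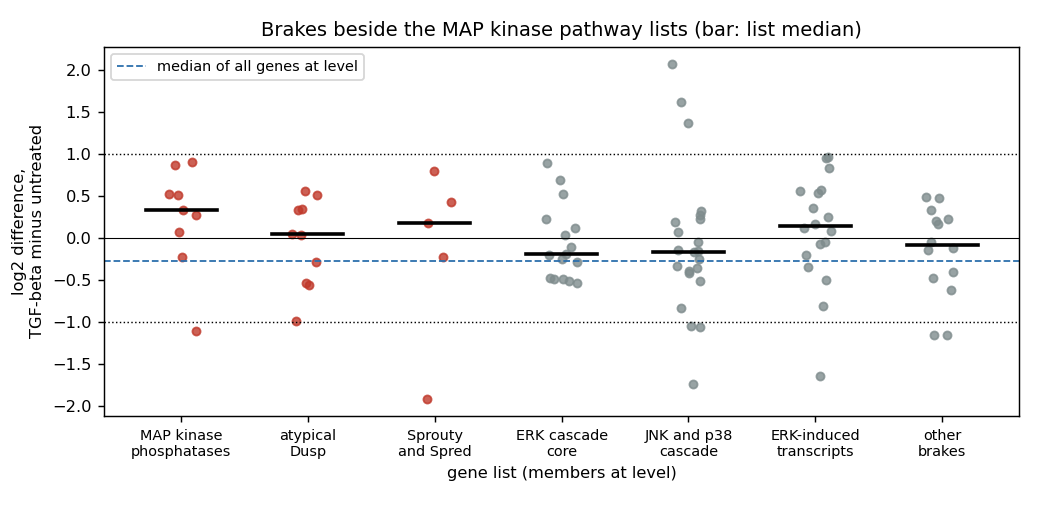
Gene-level log2 difference (TGF-beta minus untreated) of the members at level of each list: the brakes in red, the 4 pathway lists in grey, bars at the list medians, the dashed line at the median of all genes at level (−0.27) and dotted lines at 2-fold. The 3 points above 2-fold are the Gadd45 genes, and the lowest points of the brakes are Spry1 and Dusp6.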

How the data were processed

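RNA of TGF-beta and untreated NMuMG cells was measured on exon arrays, 1 array for each group at each of 2 summary levels. Values are intensities on a linear scale, deposited by the authors per transcript cluster (gene level) or probeset (exon level). The design text names core probesets, while the steps of background correction and normalization, the software and the build are not stated. Precision is limited by the number of arrays. Values were transformed as log2(intensity + 1), and where a symbol had several clusters the one with the highest mean was used. Symbols came from the platform annotation, updated through a RefSeq table (GRCm38.p6), which changed no member's name. All 4 columns were used.

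The members and lists were chosen with earlier results of these data known, as were the promoter motifs. Every member was named, and given in full where it was called or had the largest difference of its class. Of each list, the 3 highest and 3 lowest genes at level were named. Alternatives were other level rules, scalings and pseudocounts, the mean over clusters, the median of probesets and updated symbols. Python 3.11.15, pandas 2.3.3, numpy 2.4.6 and statsmodels 0.14.6 (lowess, fraction 0.3) were used.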

Additional observations from a re-analysis of the deposited data

How the results depend on the processing

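Over 11 alternatives, the 24 members at level had 252 gene-level values. Of these, 219 moved by less than the SD between the gene's probesets and 33 by more (for 2 members with 1 probeset at level, Dusp2 and Dusp23, the median SD of the members was used), and none of the members called on the deposited scale changed sign. Other level rules and updated symbols could not change a member's value, and the mean over clusters could change only that of Spred2. The values under these settings therefore count as unmoved by construction, and only scalings, pseudocounts and the median of probesets could move the other members. In all, 22 of 24 members kept their sign in every setting, the exceptions being Dusp1 and Spry2. Of 109 list medians, 107 moved by less than the SD of the list's members, but 9 turned in sign. These were those of the ERK cascade and of the JNK and p38 cascade after quantile normalization and trend removal, of the other brakes under all 3 scalings and at the 75th percentile (0.17), and of the cytoplasmic phosphatases at the 75th percentile (−0.12). The Spred median was 0.82 after quantile normalization and 0.80 after trend removal. The count of members at least 2-fold higher was 2 after centring and 1 after quantile normalization or trend removal. The count of those lower was 1 under each of these and with the level rule at the 75th percentile, which left out Spry1 and left 9 members above 0. Member probesets at least 2-fold higher numbered 11 without a level rule, 15 after centring, 18 after quantile normalization, 19 after trend removal and 1 at the 75th percentile. Those lower numbered 14 without a level rule, 7 after centring, 6 after quantile normalization or trend removal and 4 at the 75th percentile. The shares over all probesets were not computed under these settings, so these counts have no background beside them. Departing probesets numbered 10 without a level rule and 1 at the 75th percentile, where none of Spry1 was left; at a pseudocount of 16, 4 of Spry1 departed. Fewer features were at level at the 75th percentile, dim ones being left out, and what this contributed to the smaller counts was not tested. No paired analysis was possible because each group held 1 array. Signal near the lower end of the scale could not be told from background.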
